A study of Mus musculus with 18 samples.

Results

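Arc, Npas4, Homer1, Btg2, Dusp1, Dusp6, Ier2, Sik1, Arl4d and the non-coding gene 1700016P03Rik are effectors that neurons switch on within minutes to hours of activity, and their counts were followed here over 18 libraries of mouse medial prefrontal cortex. The 10 genes were taken by their Ensembl identifiers, version dropped, out of 54547 identifiers counted. They had been picked because their levels followed the number that each animal carries in its title, so that trend is given as a description and was not tested. Together they held 0.0565% of all counts.

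Control and treated animals were C57BL6/J mice at postnatal day 100. Of the 18 animals, 9 were fed a control diet and 9 were fed chow with PLX5622 at 1200 mg/kg, a drug that blocks CSF1R, the receptor microglia need to survive. By the labels, feeding began 21 days ahead of an every-other-day drinking schedule with 15% ethanol that lasted 44 days, and tissue was taken 24 hours after the last ethanol. The wording is identical for both diets and ascribes PLX5622 to controls as well, so whether every animal drank ethanol cannot be read from it. Ethanol against water was not compared.

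Calcium entry through synaptic receptors and voltage-gated channels activates kinases that phosphorylate the transcription factors CREB and SRF, and these switch on a first wave of genes without new protein synthesis. Some of that wave are transcription factors. Others act directly: at the synapse (Arc, Homer1), on the kinase cascades that induced them (Dusp1, Dusp6) or on the coactivators of CREB (Sik1). Btg2 acts on messenger RNA decay, and 1700016P03Rik through small RNAs. In cortex the first wave is used as a read-out of recent neuronal activity, and in bulk tissue fewer cells of a type and less RNA per cell cannot be told apart.

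Promoters of CREB targets often hold the cyclic AMP response element, with the letters TGACGTCA, or its shorter core TGACG. RefSeq windows on GRCm38.p6, from 250 bases before to 50 after the start, were found for 6 of the 10 genes, in 7 windows. TGACGTCA was in 3 of them and in 1.79% of all 32851 windows of that length. TGACG, searched on both strands and contained in TGACGTCA, was in 5 of the 7 windows and in 20.8% of all windows. The CArG box, the recognition motif of SRF, was in none of the 7 and in 1.63% of all windows, and GGGCGG was in 3 of the 7 and in 35.7% of all. A match is only a run of letters, and no match says only that the letters are not in that window. The 30 bases around the matches are shown because these genes are read together below, in the orientation of each gene. The RefSeq starts used for Homer1, Dusp1 and Npas4 lie inside the GENCODE spans given below. Capitals mark TGACGTCA in the first 3 and TGACG, on either strand, in the last 2.
Btg2, chr1:134079303-134079332, minus strand: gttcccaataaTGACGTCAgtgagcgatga
Arl4d, chr11:101665504-101665533, plus strand: gccgcgtcgtgTGACGTCAcgagagggttt
Dusp1, chr17:26508597-26508626, minus strand: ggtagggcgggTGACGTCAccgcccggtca
Homer1, chr13:93303696-93303725, plus strand: caagcTGACGtgagcggagggTGACGtatg
Npas4, chr19:4990129-4990158, minus strand: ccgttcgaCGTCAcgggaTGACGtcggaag

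The gene 1700016P03Rik (ENSMUSG00000085609.1, chr11:75172560-75177633, plus strand) has no protein product. Its span holds the hairpins of miR-212 and miR-132, small RNAs known from CREB-driven gene induction in neurons. Their mature sequences from RefSeq are shown because they are what this transcript delivers, with the seed, bases 2 to 8, in capitals.
mmu-miR-132-3p: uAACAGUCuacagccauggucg
mmu-miR-212-3p: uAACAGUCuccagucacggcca
mmu-miR-132-5p: aACCGUGGcuuucgauuguuac
mmu-miR-212-5p: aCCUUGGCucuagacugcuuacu
Both 3p arms share 1 seed and are identical at 17 of 22 bases, while the 5p arms have seeds of their own. Mir132 and Mir212 themselves had 0 counts in all 18 libraries, so the small RNAs were not measured and only their host transcript was.

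Depth ran from 990136 to 1742680 counts per library (median 1384979), and levels are given as CPM, counts scaled to a common library size, after TMM correction for composition. At this depth 1 CPM is about 1 to 2 counts, and since the labels do not say how animals were housed or processed, p-values measure only the spread between these libraries. The numbers in the titles run from 2 to 11 in the controls and from 25 to 35 with PLX5622. A sample number in the names of the deposited tables runs from 25 to 42 and alternates between the diets, so its order is the order of the animal numbers in both diets (Spearman's rho 1.0 in each). Animal number and that sample order therefore cannot be told apart within a diet. Between the diets the animal numbers do not overlap, so diet and anything tied to the animal number cannot be told apart either, whereas the sample numbers interleave. Markers of neurons, astrocytes, oligodendrocytes and vessels were present in every library, and the 10 microglial markers examined, Csf1r and P2ry12 among them, were all lower with PLX5622, with a summed level of 360 to 486 CPM in controls and 90.7 to 156 CPM with PLX5622.

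The first question was whether the diets differed. Every one of the 9 genes that passed the count filter had a higher level with PLX5622, but none passed the test over all genes. Their median log2 fold change, PLX5622 over control, was 0.49, beside 9.93e-05 over all 11051 tested genes, of which 50% were positive. Of the 9, 6 had an unadjusted p under 0.05 and a higher level, as did 3.57% of all tested genes (edgeR's quasi-likelihood test). After Benjamini-Hochberg adjustment 0 of the 9 were called, and 0.0452% of all tested genes were called higher. DESeq2 called 3 of the 10, Arc, Btg2 and Dusp1, and limma-voom called 0. DESeq2 called 0.0386% of its tested genes higher and limma-voom 0.0362%. The genes were chosen on the same libraries for a trend with a number that is higher in every PLX5622 animal, so their shared direction is not independent evidence of a diet effect.

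Arc (ENSMUSG00000022602.14, chr15:74669083-74672570, minus strand) encodes a protein made at active synapses that promotes the uptake of AMPA receptors, and it differed most. In controls its level ran from 22.7 to 63.6 CPM with a median of 37.9, and with PLX5622 from 43.6 to 121 CPM with a median of 76.0. The diets overlapped: 5 of 9 PLX5622 libraries lay above every control, and 6 of 9 controls lay below every PLX5622 library. The means were 39.4 ± 13.6 and 77.1 ± 29.1 CPM (SD, n = 9 each). The log2 fold change was 0.98 ± 0.26 (SE), with a 95% interval from 0.44 to 1.52 (edgeR adjusted p = 0.186, DESeq2 0.0291). Its spread in controls, 34.5% of the mean, was larger than the 13.8% that counting alone gives.

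Homer1 (ENSMUSG00000007617.18, chr13:93299635-93405129, plus strand) encodes a scaffold that ties group I metabotropic glutamate receptors to Shank proteins and calcium stores. Neuronal activity induces a short form, Homer1a, that lacks the part by which the long forms join, and counts summed over the whole gene do not separate the forms. Its level ran from 238 to 315 CPM in controls, median 261, and from 280 to 423 CPM with PLX5622, median 306. All 9 PLX5622 libraries lay above the control median and 4 above every control. The difference was small and its spread small too, at 0.26 ± 0.07 (log2, SE, 95% interval 0.11 to 0.41, edgeR adjusted p = 0.186).

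Npas4 (ENSMUSG00000045903.8, chr19:4984355-4990316, minus strand) encodes a transcription factor that neurons induce on calcium entry and that shapes their inhibitory synapses. Its level was 6.95 to 31.0 CPM in controls, median 19.6, and 13.0 to 26.2 CPM with PLX5622, median 20.2. Controls spanned the whole PLX5622 range. The log2 fold change was 0.10 ± 0.17 (SE), with a 95% interval from -0.23 to 0.44 (edgeR adjusted p = 0.966), so a difference as large as that of Arc lies outside it and one as large as that of Homer1 inside.

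Among the feedback genes Dusp1, Dusp6 and Sik1, Dusp1 had the largest fold change. Dusp1 (ENSMUSG00000024190.6, chr17:26505590-26562128, minus strand) encodes a nuclear phosphatase of the kinases p38, JNK and ERK. Its level was 16.6 to 35.6 CPM in controls, median 27.4, and 29.5 to 62.1 CPM with PLX5622, median 41.6. All 9 PLX5622 libraries exceeded the control median and 5 exceeded every control. The log2 fold change was 0.65 ± 0.17 (SE, 95% interval 0.29 to 1.01, edgeR adjusted p = 0.164, DESeq2 0.0163). Ergic1 and Gm8225 together overlap 2.8% of the Dusp1 span on the other strand. They had 2215 and 2 counts in all, against 876 for Dusp1, and reads in the shared stretch may not be separated. On the same strand, the annotated genes AC122252.4 and AC122252.1 overlap 3.7% of the span. No counted identifier was matched to either, so their counts are not known. Dusp6 (ENSMUSG00000019960.8, chr10:99263231-99267489, plus strand), the cytoplasmic phosphatase of ERK, was at 39.2 to 57.2 CPM in controls and 38.9 to 62.9 CPM with PLX5622, with medians of 48.7 and 52.9. The lower ends of the ranges were nearly the same, and 4 of 9 PLX5622 libraries lay above every control. Its log2 fold change of 0.13 ± 0.09 (SE) had a 95% interval from -0.06 to 0.31 (edgeR adjusted p = 0.876). Sik1 (ENSMUSG00000024042.6, chr17:31844250-31855804, minus strand) encodes a kinase that holds the CREB coactivators CRTC in the cytoplasm. It was too sparse for the fit, with 72 counts in all controls and 70 with PLX5622. Its means were 6.06 ± 2.47 and 5.58 ± 3.49 CPM (SD, n = 9 each), a gap smaller than either SD (two-sided p = 0.741, exact permutation test of mean CPM). It is the only one of the 10 whose mean was lower with PLX5622.

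Btg2 (ENSMUSG00000020423.6, chr1:134075170-134079120, minus strand) encodes an anti-proliferative protein that speeds the removal of poly(A) tails by the CCR4-NOT complex. It was at 10.02 to 28.1 CPM in controls, median 16.1, and 19.5 to 43.1 CPM with PLX5622, median 27.9. All 9 PLX5622 libraries lay above the control median and 1 control lay above the PLX5622 median. The log2 fold change was 0.69 ± 0.21 (SE, 95% interval 0.26 to 1.13, edgeR adjusted p = 0.274, DESeq2 0.0494). Ier2 (ENSMUSG00000053560.4, chr8:84661331-84662852, minus strand) encodes a nuclear protein of the first wave. It was at 8.49 to 15.7 CPM in controls and 7.09 to 26.2 CPM with PLX5622, with medians of 11.3 and 13.2. Its spread was 22.9% of the mean in controls, beside 25.2% from counting, and 41.3% with PLX5622, beside 22.6%. Its log2 fold change was 0.26 ± 0.19 (SE, edgeR adjusted p = 0.868), with a 95% interval from -0.11 to 0.63. Without PLX5622 29, its highest library, the fold change was 0.12.

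The miR-132 and miR-212 host 1700016P03Rik ran from 12.02 to 44.3 CPM in controls, median 38.3, and from 28.4 to 87.3 CPM with PLX5622, median 65.5. With PLX5622, 6 of 9 libraries lay above every control. The log2 fold change was 0.78 ± 0.24 (SE, 95% interval 0.26 to 1.29, edgeR adjusted p = 0.349). Ovca2, on the other strand, overlaps 33.3% of its span, and since the strand setting of the counting is not given in the sources used here, reads of the pair may not be separated. Ovca2 had 231 counts in all, against 1136 for 1700016P03Rik. Arl4d (ENSMUSG00000034936.2, chr11:101665541-101667832, plus strand) encodes a small GTPase that recruits ARF exchange factors to the plasma membrane. It was at 9.11 to 20.7 CPM in controls and 8.57 to 37.5 CPM with PLX5622. With PLX5622 6 of 9 libraries lay above every control, and PLX5622 26 lay below every control (log2 fold change 0.49 ± 0.22, SE, edgeR adjusted p = 0.701).

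**Figure D1:**
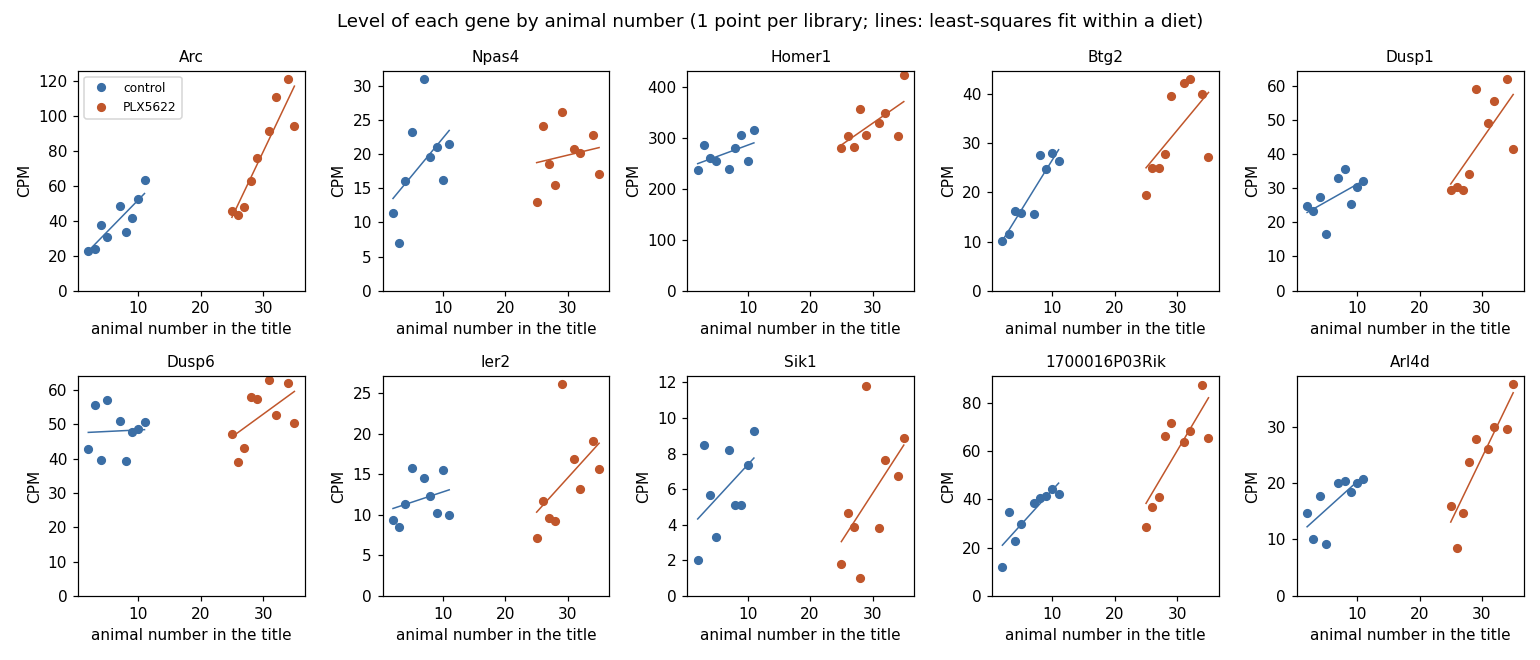
CPM of each gene (vertical axis, starting at 0) against the animal number in the title (horizontal axis), 1 point per library, with a least-squares line within each diet of 9 libraries. Arc, Btg2, 1700016P03Rik and Arl4d climb with the number in both diets, Arc from 22.7 to 63.6 CPM between controls 2 and 11, while Dusp6 is flat in controls.

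Within a diet the levels followed the animal number, which is what the genes were picked for. In controls all 10 had a positive Pearson's r with the number, from 0.07 to 0.93 with a median of 0.56, and with PLX5622 from 0.24 to 0.92 with a median of 0.65. No p is given, since the choice of genes fixed the direction. Without the 2 animals farthest from the median number, 2 and 3 in controls and 34 and 35 with PLX5622, r stayed positive for 8 of 10 genes in controls and 10 of 10 with PLX5622. The exceptions were Npas4 at -0.03 and Ier2 at -0.29. Control 11 lies as far from the median as control 3 and was kept.

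Arc followed the number closely in both diets. Its mean over the first 3 and last 3 controls was 28.2 and 52.5 CPM, and over the first 3 and last 3 PLX5622 animals 45.7 and 109 CPM. Pearson's r was 0.88 in controls (Spearman's rho 0.88) and 0.92 with PLX5622 (rho 0.93), over 9 libraries each. An r over 0.8 in both diets was reached by 5 of the 11051 tested genes, of which Arc was the only one among the 10. The other 4 were Pcsk1, Nr4a1, Chrm1 and Ugdh, the last named after its values were seen. Among the 10, 1700016P03Rik came close, at 0.794 in controls and 0.809 with PLX5622. The edgeR slope of Arc was 0.14 (log2 per animal number, SE 0.025) in controls and 0.14 (SE 0.017) with PLX5622, which is 2.37-fold over the 9 numbers from control 2 to 11 and 2.69-fold over the 10 from PLX5622 25 to 35.

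1700016P03Rik and Arl4d also climbed in both diets. The host transcript went from a mean of 23.1 CPM in the first 3 controls to 42.6 CPM in the last 3, and from 35.3 to 73.6 CPM with PLX5622, with slopes of 0.13 and 0.11 (log2 per number, SE 0.033 and 0.023). Control 2 was its lowest library at 12.02 CPM, and without that library alone its control slope was 0.082. Without controls 2 and 3 its r in controls was 0.91, against 0.79 with them. Arl4d went from 14.2 to 19.7 CPM and from 13.1 to 32.3 CPM between the first and last 3 animals, with slopes of 0.084 (SE 0.035) and 0.14 (SE 0.027).

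Btg2 had the steepest slope in controls, 0.16 (SE 0.034), from 12.6 CPM in the first 3 to 26.5 CPM in the last 3. With PLX5622 its slope was 0.072 (SE 0.024), and PLX5622 35, at 27.3 CPM, lay below PLX5622 34 at 39.96 CPM. Without PLX5622 34 and 35 its r was 0.95, against 0.63 with them. Dusp1 leaned the other way, with slopes of 0.052 (SE 0.030) in controls and 0.089 (SE 0.022) with PLX5622, where it went from 29.8 to 53.1 CPM.

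Homer1, Dusp6, Npas4, Ier2 and Sik1 had an r of at most 0.674 in either diet. Homer1 went from 262 to 292 CPM in controls and from 289 to 359 CPM with PLX5622 between the first and last 3 animals. Dusp6 had an r of 0.07 in controls and 0.57 with PLX5622. Npas4 had 0.58 and 0.24, Ier2 0.32 and 0.61, and Sik1 0.53 and 0.59. For Sik1 the spread was 40.8% in controls, beside 35.4% from counting, and 62.5% with PLX5622, beside 35.9%.

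**Figure D2:**
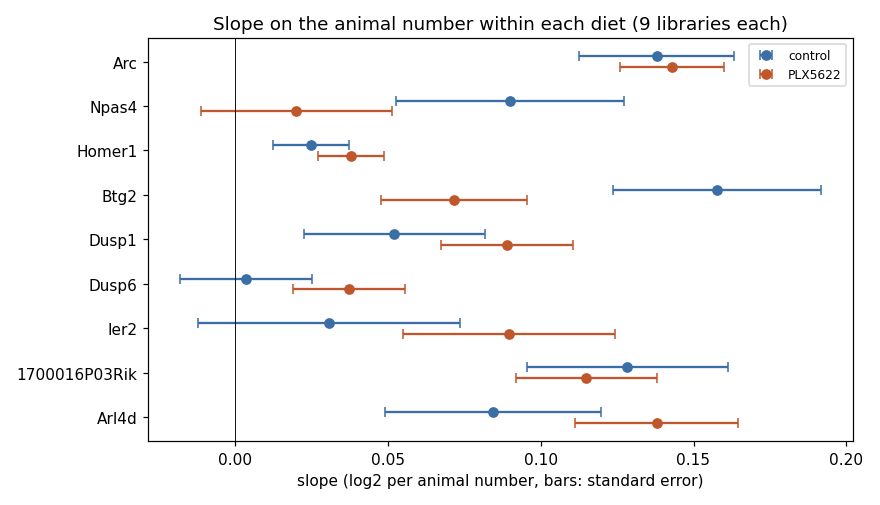
Slope of each of the 9 tested genes on the animal number (log2 per number, horizontal axis) within controls and within PLX5622, with standard errors, 9 libraries each. The points of both diets lie close for Arc, at 0.14 in each, and farthest apart for Btg2, at 0.16 and 0.072, although without PLX5622 35 the latter was 0.117.

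Whether the slope differed between the diets was tested as a separate contrast. It is built from the same trends that the choice of genes drew on, and all 10 had a positive r in both diets. A small difference may therefore follow in part from the choice. None of the 9 genes passed (edgeR's quasi-likelihood test of the interaction, Benjamini-Hochberg adjusted), and neither did any of the 11051 tested genes (0.0%). DESeq2 also called 0 of the 10. At an unadjusted p under 0.05 there was 1 of the 9, Btg2, beside 4.52% of all tested genes. For Arc the difference of slopes, PLX5622 minus control, was 0.005 (log2 per number), with a 95% interval from -0.059 to 0.069, and the control slope of 0.14 lies outside that interval. For Btg2 it was -0.086, with an interval from -0.17 to -0.003 and an adjusted p of 0.984. Without PLX5622 35 alone the Btg2 difference was -0.041 and its PLX5622 slope 0.117. The widest interval was that of Ier2, from -0.05 to 0.17, so a difference of the size of the Arc slope, with PLX5622 steeper, lies inside it.

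The animal number was also taken into the model, centred within each diet, so it could hardly move the diet difference of a gene. It narrowed the error of each, as the plot of both fits shows. In that fit 5 of the 9 genes were called higher with PLX5622, against 0.154% of all tested genes. They were Arc at 0.96 ± 0.09 (log2, SE, adjusted p = 8.29e-13), 1700016P03Rik at 0.76 ± 0.12 (9.79e-05), Dusp1 at 0.65 ± 0.12 (0.000217), Btg2 at 0.69 ± 0.13 (0.000405) and Homer1 at 0.26 ± 0.05 (0.00167), by edgeR's quasi-likelihood test. The covariate is the trend the genes were picked for, so their small remaining spread follows in part from the choice, and these p-values are given beside those without the covariate and not in their place. The covariate was centred within each diet and so leaves the gap between numbers 11 and 25 in the diet difference.

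**Figure D3:**
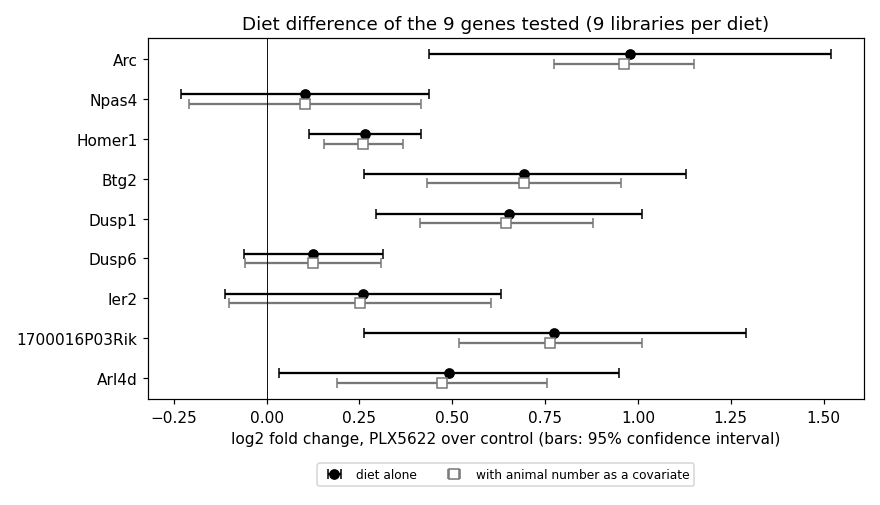
Log2 fold change, PLX5622 over control, of the 9 tested genes with 95% confidence intervals, from the fit on diet alone (filled circles) and with the animal number as a covariate (open squares). The estimates hardly move, as for Arc at 0.98 and 0.96, since the number was centred within each diet. The intervals are narrower with the covariate.

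The interleaved sample numbers give 9 pairs of neighbours, 1 control and 1 PLX5622 library each. In all 9 pairs the PLX5622 library had the higher CPM of Arc, Homer1, Btg2, Dusp1 and 1700016P03Rik. The same held in 7 pairs for Dusp6 and Arl4d, 6 for Ier2, 5 for Npas4 and 2 for Sik1. Of all tested genes, 0.407% were higher with PLX5622 in every pair. With the pairs as a block, a fit added after the data were seen, those 5 genes were called higher (highest edgeR adjusted p = 0.000155), as were 0.181% of all tested genes. Within a diet the order of the pairs is the order of the animal numbers, so pairing takes out the trend the genes were picked for. As with the covariate, the small remaining spread follows in part from the choice of genes, and the block is no second line of evidence.

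The 10 genes also moved together from library to library. After subtracting each diet's mean, 44 of the 45 pairs of genes had a positive Pearson's r of log2 CPM over 18 libraries, with a median of 0.49. The highest values were 0.80 for Arc and Arl4d, 0.79 for Dusp1 and Arl4d and 0.78 for Btg2 and 1700016P03Rik. Since all had been picked for 1 trend, that trend was then taken out within each diet. After that 30 of the 45 pairs were positive and the median was 0.17. Npas4 with Ier2 stood highest at 0.65, followed by Dusp1 with Arl4d at 0.58, Dusp6 with 1700016P03Rik at 0.58 and Btg2 with Dusp1 at 0.57, while Homer1 with Ier2 was lowest at -0.51. The points share libraries and depth, and no like values were computed for pairs of other genes. The values therefore only describe these 18 libraries.

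**Figure D4:**
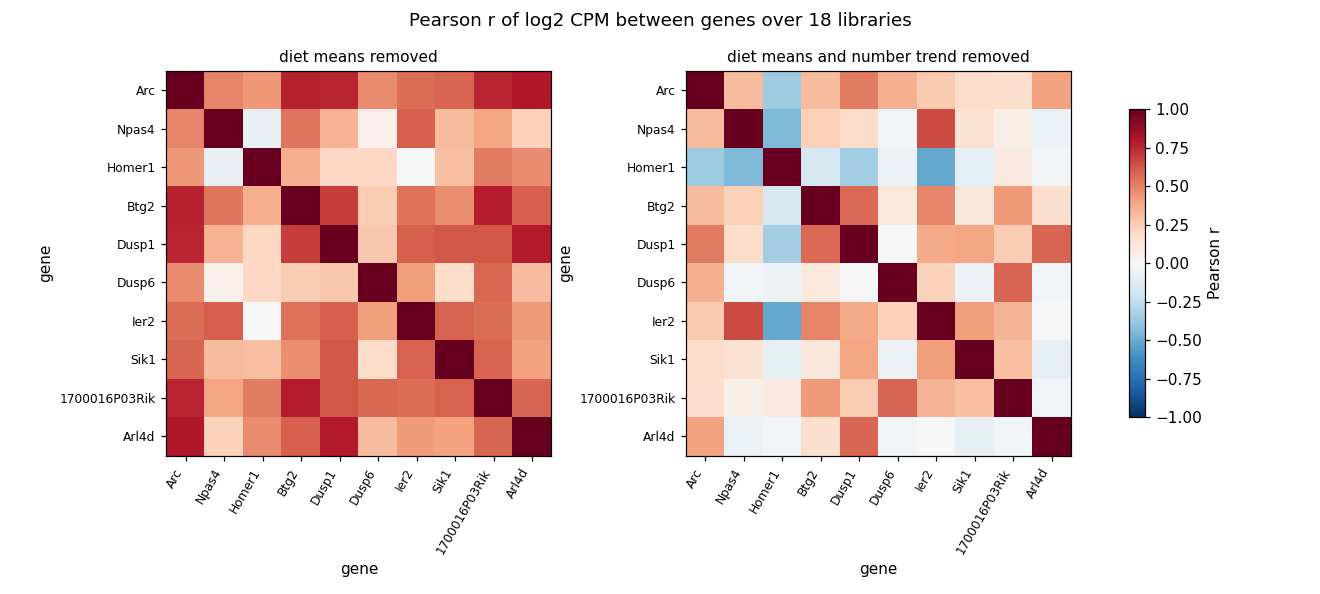
Pearson's r of log2 CPM between the 10 genes over 18 libraries, from -1 (blue) to 1 (red), after removing diet means (left) and also the trend on the animal number within each diet (right). The left panel is nearly all red, with a median of 0.49, and the right panel is paler, with a median of 0.17 and blue cells for 8 of the 9 pairs of Homer1.

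Genes outside the 10 were ranked by how closely they followed the mean of the 10 over the 18 libraries, after subtracting diet means. Ranked were the 10981 genes averaging 10 counts or more. The number trend was left in, and that mean had an r with the number of 0.93 in controls and 0.84 with PLX5622. The ranking therefore also picks genes by the trend the 10 were chosen for. Fos, a subunit of the AP-1 transcription factor, came first at a Pearson's r of 0.88. It was followed by Chrm1 (a muscarinic acetylcholine receptor) at 0.82, Stard3nl at 0.82, Pde4a (a cyclic AMP phosphodiesterase) at 0.82, Dapk1 at 0.81, Pcsk1 (a prohormone convertase) at 0.81, Rbm5 at 0.81 and Txn-ps1, a pseudogene, at 0.81. These 8 differed in their diet values. Fos was at 0.88 and Pcsk1 at 0.54 (log2 fold change), while Chrm1, Stard3nl, Pde4a, Dapk1, Rbm5 and Txn-ps1 lay between -0.02 and 0.09. Slopes of Chrm1 were 0.040 in controls and 0.048 with PLX5622, and its diet value was 0.02 with a 95% interval from -0.11 to 0.16 (edgeR adjusted p = 0.989).

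Related genes came from lists written with earlier results of these data known. The rapid activity-induced list, which excludes the 10, holds 31 genes, of which 23 were tested. Of the 31, 4 had 0 counts in all 18 libraries, and the reason was not tested. Among the 23, 21 had a positive diet value with a median of 0.30, beside 50% positive over all tested genes. Called higher were 2, Junb at 0.59 ± 0.13 (log2, SE, edgeR adjusted p = 0.0149) and Fosb at 0.86 ± 0.20 (0.0162), beside 0.0452% of all tested genes. All 23 had a positive slope on the animal number, with a median of 0.056, beside 50.2% of all tested genes. Of these, 6 were called upward, beside 0.163% of all tested genes: Fos, Junb, Egr4, Nr4a1, Tiparp and Trib1. Since the lists were written with earlier results known, such calls are not independent evidence of a trend. DESeq2 also called Junb and Fosb higher for diet, beside 0.0386% of its tested genes. At an unadjusted p under 0.05 (edgeR) there were 12 of the 23 for diet and 14 for number. Over all tested genes those shares were 6.79% and 9.3%. Among 23 tested delayed genes 19 had a positive diet value, with a median of 0.12, and 10 had an unadjusted p under 0.05 for diet. After adjustment 1 was called higher, Pcsk1 at 0.54 ± 0.12 (edgeR adjusted p = 0.0201). The 1 called lower was Rgs2, a regulator of G protein signalling, at -0.38 ± 0.08 (0.0108, beside 0.353% of all tested genes called lower). Of the delayed genes 20 had a positive slope, with a median of 0.013 over the 23, and 7 had an unadjusted p under 0.05 for number. Pcsk1 and Nr4a3 were called upward.

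The lists of partners of the 10 genes had median diet values (log2 fold change) from -0.08 to 0.07, beside 9.93e-05 over all tested genes. Of 15 Homer, Shank and metabotropic receptor partners none was called for diet or number (0 and 1 at an unadjusted p under 0.05), with medians of -0.01 (log2 fold change) and -0.002 (slope), and Shank1 was at -0.07, Dlgap3 at 0.07 and Grm5 at -0.05. Over all tested genes those shares were 6.79% for diet and 9.3% for number. None of 18 genes of AMPA receptor endocytosis was called either (1 and 4 unadjusted), with Dnm1 at -0.11 and Gria3 at -0.07. Their slopes on the number were positive for 5 of the 18. Among 13 other dual-specificity phosphatases none was called (2 and 2 unadjusted). Dusp5, itself an inducible ERK phosphatase, was nearest at 0.60 ± 0.18 (adjusted p = 0.186). In the ERK, p38 and JNK list 22 of 28 tested genes had a positive diet value and none was called (8 for diet and 5 for number unadjusted), with a median of 0.07. The ERK inhibitor Spred2 was at 0.25 ± 0.07 (adjusted p = 0.0793) and the ERK-induced factor Etv5 at 0.28 ± 0.08 (0.164). Sik2, a relative of Sik1, was the only gene of 20 in the CREB and CRTC list called on the number, with slopes of 0.023 in controls and 0.086 with PLX5622, and its diet value was 0.36 ± 0.15 (adjusted p = 0.626). None of 7 SRF and MEF2 factors, 9 BTG, Tob and CCR4-NOT genes, 6 Npas4 partners or 7 Arl4 and cytohesin genes was called for diet or number, with 1 of these 29 at an unadjusted p under 0.05 for diet. DESeq2 called none of the genes of these partner lists for diet.

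**Figure D5:**
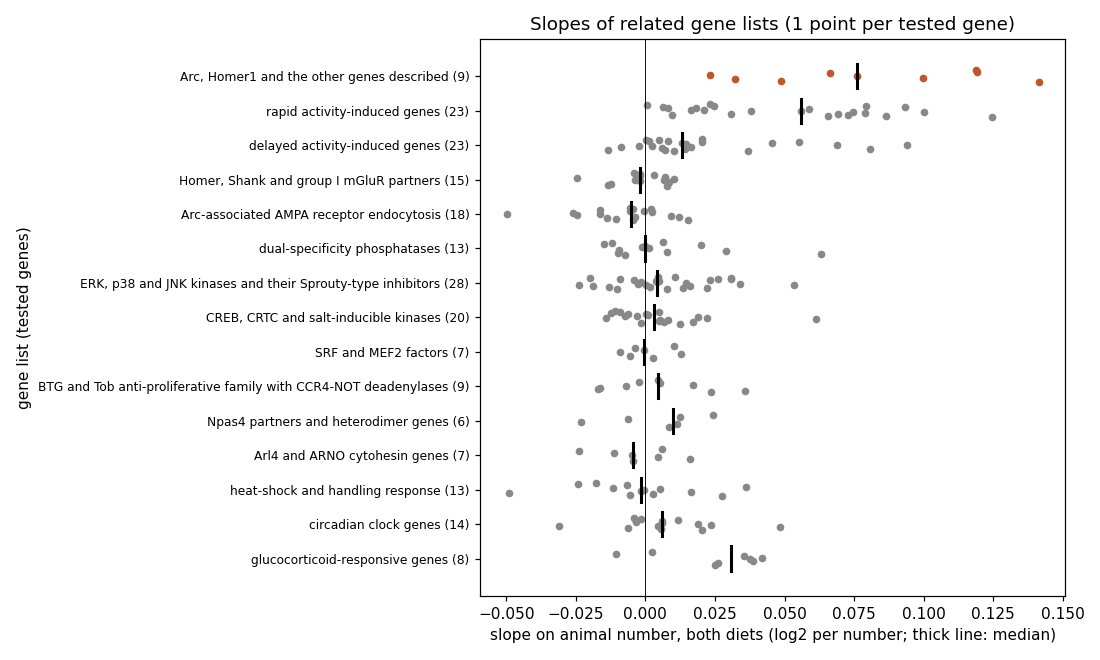
Slope on the animal number in a fit over both diets (log2 per number, horizontal axis) for the tested genes of each list, 1 point per gene, with the median as a thick line. The 9 tested genes described here, picked for this slope, have a median of 0.076, the rapid activity-induced genes 0.056, and most lists of partners lie around 0.

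Some measures of the libraries moved with the number and others did not. Total counts had an r of 0.15 in controls and 0.08 with PLX5622, and the number of genes detected 0.05 and 0.04. The share of counts from mitochondrial genes had an r of -0.84 in controls (range 4.18% to 5.03%) and -0.39 with PLX5622 (range 3.90% to 5.24%). The summed neuronal markers had an r of -0.27 and -0.61, the summed glutamatergic markers -0.099 and -0.175, and the summed microglial markers -0.64 and -0.10. The sums of striatal markers had 0.084 and 0.584, of astrocyte markers -0.001 and 0.549, and of mural cell markers -0.55 and -0.319. Summed choroid plexus markers were at 4.46 to 16.4 CPM in controls and 9.46 to 43.1 CPM with PLX5622, and the r of that sum with the number was 0.113 and -0.041. The 1 of 6 that could be tested had a log2 fold change of 1.49, PLX5622 over control. Its unadjusted p for diet was under 0.05 (edgeR's quasi-likelihood test), and it was not called. None of the 8 general neuronal markers was called on the number or for diet (1 unadjusted in each), and their sum ran from 7905 to 8638 CPM in controls and 7978 to 8783 CPM with PLX5622. The part of mitochondrial share, of these cell markers or of sample order in the courses of the 10 genes was not tested.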

How the data were processed

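RNA was fragmented before first-strand synthesis and the adapter added through a switch oligo that holds degenerate bases, per the labels' protocols. Whether reads were collapsed by those bases, the strand setting and the annotation release are not given in the sources used. The authors deposited whole-number counts per Ensembl gene, 1 table per library. Among the tools in the submitters' processing notes are Bowtie2 2.3.4.3 and HTSeq 0.11.0, with mm10 and GRCm38.p6 as builds and no role stated. Identifiers were matched to GENCODE M21 on GRCm38 without version, 53620 of 54547, and the unmatched held 0.0467% of counts. Promoter and miRNA sequences are from RefSeq, GRCm38.p6.

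Counts were tested with edgeR 4.0.16 (R 4.3.3): filterByExpr (minimum count 10, minimum total 15), TMM, robust quasi-likelihood fit, Benjamini-Hochberg adjustment over 11051 genes, threshold 0.05. SE is the size of the log2 change divided by the square root of its F statistic. Log2 CPM carry a prior count of 2. The animal number was centred within its diet. Sik1 failed the filter and was tested over all 48620 group assignments. No pair of libraries agreed within sampling noise (lowest chi-square per degree of freedom 1.129). The fits were tested on simulated counts. Alternatives were DESeq2 1.42.0, limma-voom (limma 3.58.1), other scalings and filters, the number as covariate or position, and each library left out.

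The genes and lists were chosen with earlier results of these data known. The text names all 10 genes, up to 3 genes per list with the smallest diet p and 2 with the largest slope, of which a selection is printed, and the 8 genes closest to the mean of the 10. Genes outside that rule (Egr4, Tiparp, Trib1 and Ugdh among them) were named after their values were seen because they were called or passed a stated limit.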

Additional observations from a re-analysis of the deposited data

How the results depend on the processing

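For diet, 0 of the 9 tested genes were called, as with limma-voom, both other scalings and a mean of at least 50 counts, which left 4 to test. The count was 3 with DESeq2 (Arc, Btg2, Dusp1), 3 with no count filter (Homer1, Btg2, Dusp1), 5 with the animal number as a covariate and 5 with pairs of adjacent sample numbers as a block. Leaving out 1 library gave 0 to 3: without PLX5622 25 Homer1, Btg2 and Dusp1 were called (adjusted p 0.0495, 0.0495 and 0.0223), and without PLX5622 27 Dusp1 was (0.0271). Of 229 recomputed fold changes 208 kept direction and side of the threshold, 20 passed it, and 1 changed sign, Npas4 at -0.00198 without control 3 (highest 0.209 without 1 library). The difference of slopes gave 0 calls in every setting. In controls the slope of Dusp6 was -0.00951, -0.00475 and -0.00222 without control 2, 4 and 11 (highest 0.0179), and with PLX5622 that of Npas4 was -0.0128 without PLX5622 25 (highest 0.044). Over all genes 5 were called higher and 39 lower. The counts were 20 and 92 with no count filter, 0 and 8 at a mean of at least 50 counts, 17 higher with the covariate, 20 with the block, and 65 lower with DESeq2. Higher calls ran from 2 to 13 without 1 library. The replicate numbers of the diets do not overlap and pair no libraries, so the block uses the order of the table names and was added after the data were seen. The cause of these changes was not tested. In controls the spread of Ier2 and Sik1 was near that of counting, and with PLX5622 it was larger.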

Other observations

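Lists for other states that can move activity-induced genes gave no call for diet or number with edgeR, nor for diet with DESeq2. Of 13 tested heat-shock genes, induced by protein damage and handling, 8 had a positive diet value, with a median of 0.01 (log2). Their median slope was -0.0015, and 1 for diet and 2 for number had an unadjusted p under 0.05. Over all tested genes those shares were 6.79% and 9.3%. The chaperone gene Hspa5 was at 0.18 ± 0.06 (log2, SE, edgeR adjusted p = 0.429) and Hspa1b at 0.34 ± 0.17 (0.745). Of 14 tested clock genes 7 had a positive diet value, with a median of 0.0008 (2 for diet and 1 for number unadjusted). The activator Arntl was at 0.30 ± 0.08 (adjusted p = 0.0674) and the output gene Dbp at -0.26 ± 0.10 (0.538), and Per2 had the largest slope of the list, 0.048 per animal number (adjusted p = 0.450).

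Glucocorticoid-responsive genes all had positive diet values, 8 of 8 tested, with a median of 0.10. Slopes were positive for 7 of the 8, with a median of 0.031. None was called, while 1 for diet and 4 for number had an unadjusted p under 0.05. Over all tested genes those shares were 6.79% for diet and 9.3% for number (edgeR's quasi-likelihood test). Zbtb16 was at 0.17 ± 0.08 (log2, SE, edgeR adjusted p = 0.659) and Fkbp5, a chaperone of the receptor, at 0.18 ± 0.13 (0.864). Tsc22d3 had slopes of -0.010 in controls and 0.072 with PLX5622, and that difference was not called, as no gene was.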
